A study of Mus musculus with 36 samples.

Results

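Expression profiling of SWR/J striatum after repeated morphine was examined in 6 of the 36 arrays of the series: the 3 arrays of SWR/J mice given chronic morphine and the 3 arrays of SWR/J mice given saline. The features were all probe sets other than array controls with an intensity above 99.7 on at least 3 of these 6 arrays, and 25907 of 45037 met this rule. They cover 12779 genes through probe sets that carry 1 gene symbol. Chronically treated mice received 3 morphine injections a day for 4 days, at 10, 20, 40 and 40 mg/kg, and a last injection of 40 mg/kg on day 5. Saline mice were injected with saline on the same schedule. The acute SWR/J group, used here for comparison, received saline on the first 4 days and a single 20 mg/kg dose of morphine on day 5. The same 3 treatments were applied to 129P3/J, C57BL/6J and DBA/2J mice. All were adult males aged 8 to 10 weeks, without a genetic modification, and striata were taken 4 h after the last injection. Each group consisted of 9 mice, and the RNA of 3 mice was pooled on each of its 3 arrays, so that the spread between arrays is one between pools and not between single animals. The dissected block held the rostral caudate putamen together with the nucleus accumbens.

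The striatum consists mainly of inhibitory medium spiny neurons, which receive dopamine from the midbrain and carry opioid receptors on part of their number. Morphine acts on the mu opioid receptor, a receptor coupled to inhibitory G proteins, and its administration to rodents raises circulating corticosterone. That hormone enters the brain and binds the glucocorticoid receptor, a transcription factor found in neurons, glia and vessel cells. A piece of brain also holds blood, and the most abundant RNAs of immature red cells are those of the alpha and beta chains of hemoglobin.

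The 6 arrays had median intensities of 122 to 132, within the 119 to 133 of the whole series. Log2 values correlated at 0.967 to 0.98 within the 2 groups (6 pairs of arrays) and at 0.963 to 0.981 between them (9 pairs), so the arrays did not stand apart by treatment. The poly-A control score, taken from spiked transcripts, was -0.83 on the second chronic array and between 0.18 and 0.3 on the other 5. Genes typical of medium spiny neurons were bright on every array. Penk, the enkephalin precursor, had log2 values of 12.00, 12.13 and 12.17 on chronic arrays and 12.31, 12.12 and 12.01 on saline arrays. Ppp1r1b, which encodes DARPP-32, had 11.38, 11.29 and 11.29 on chronic arrays and 11.53, 11.62 and 11.27 on saline arrays. The median difference between chronic morphine and saline over all 12779 genes was -0.016 on the log2 scale, with quartiles at -0.106 and 0.09.

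Few probe sets were called between chronic morphine and saline in this strain, which does not show that few transcripts changed. In a limma fit over the 12 groups of the series, 9 of 25907 probe sets (0.0347%) differed between chronic morphine and saline at a Benjamini-Hochberg adjusted p under 0.05, of which 3 were higher (0.0116%) and 6 lower (0.0232%). The 3 that rose belong to Fkbp5, to the Ugt1a cluster of glucuronosyltransferases and to Greb1l. Among the 6 that fell, 4 belong to hemoglobin genes, 1 to Dusp15, and 1 carries no gene name. At the level of genes, with 1 probe set per gene, Fkbp5 rose and Hbb-b2 fell (1 of 12779 genes, or 0.00783%, in each direction). The falls of Hbb-b2, Dusp15 and the unnamed probe set passed the filter through saline arrays alone, so their size is uncertain. The weaker criterion of an unadjusted p under 0.05 was met by 577 higher probe sets (2.23%) and 971 lower ones (3.75%). All 3 chronic arrays lay above all 3 saline arrays for 1261 probe sets (4.87%) and below them for 1847 (7.13%). Differences were small as a rule, with 77 probe sets at least 1.5-fold higher (0.297%) and 126 at least 1.5-fold lower (0.486%).

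These 9 calls rest on a spread estimated from all 36 arrays. When the 6 arrays, or the 9 SWR/J arrays, were fitted alone, none of the 9 passed. The difference of group means is the same in these fits, so its direction could not change. In them, 1440 and 1423 probe sets had an unadjusted p under 0.05. With chronic array 1, saline array 2 or saline array 3 left out no probe set passed, and 2 to 6 of the 9 passed when one of the other arrays was omitted (3 without chronic array 2, 2 without chronic array 3 and 6 without saline array 1).

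**Figure D1:**
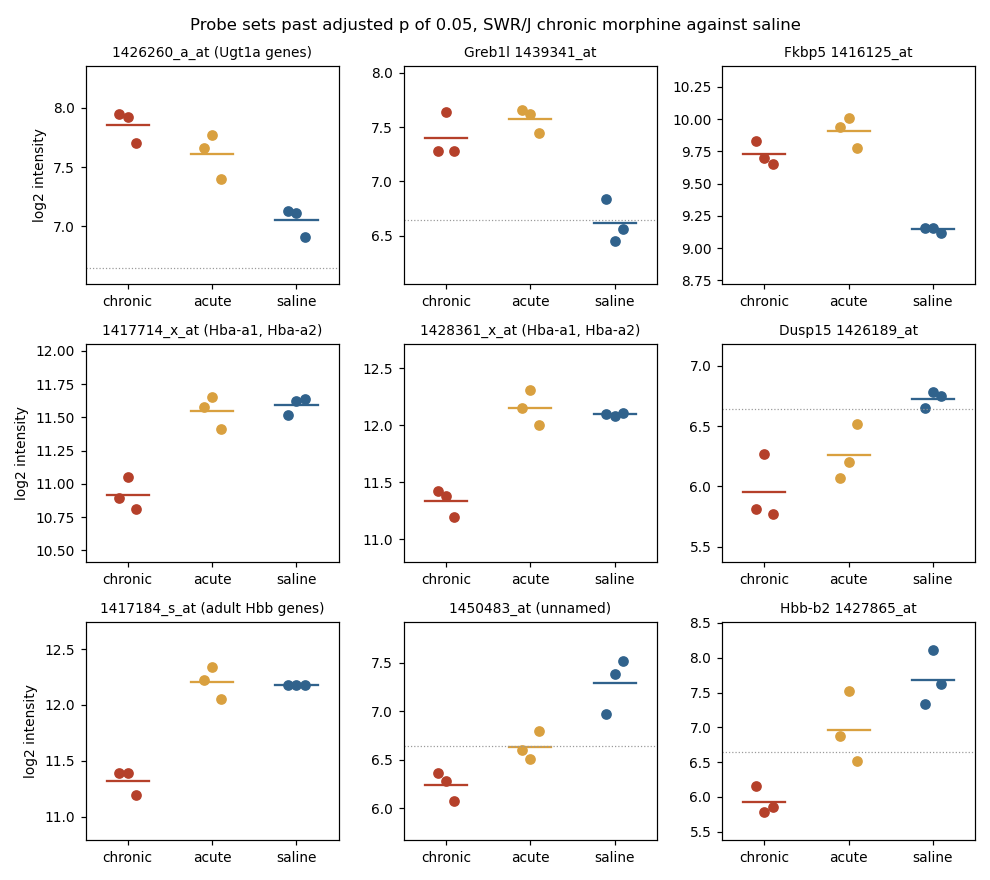
Log2 intensity of the 9 called probe sets on each SWR/J array, with chronic morphine left of acute morphine and saline, points for arrays (3 per group), bars for group means and a dotted line at the intensity limit of the filter. Chronic and saline arrays do not overlap in any of the 9 panels, and the acute arrays of the hemoglobin probe sets other than Hbb-b2 lie near the saline arrays.

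Fkbp5 encodes an immunophilin that binds the heat shock protein HSP90 and lowers the affinity of the glucocorticoid receptor for its hormone, and its own transcription is induced by that receptor. Its brightest probe set, on chromosome 17, had log2 values of 9.83, 9.70 and 9.65 on chronic arrays, against 9.16, 9.16 and 9.12 on saline arrays. All chronic arrays lay above all saline arrays by a wide margin relative to the spread within a group. Mean intensity was 847 ± 58.2 after chronic morphine and 567 ± 8.49 after saline (SD, n = 3 pools each), a 1.49-fold rise (log2 change 0.58 ± 0.0921 SE, limma adjusted p = 0.0119). A second, dimmer Fkbp5 probe set had 8.29, 7.77 and 7.90 on chronic arrays and 7.63, 7.57 and 7.72 on saline arrays, and its difference of 0.35 was not called (adjusted p = 0.8). The mean of both probe sets was not called either (difference 0.46, adjusted p = 0.224). After acute morphine the brighter probe set had 9.94, 10.01 and 9.78 (change against saline 0.76, adjusted p = 1.45e-04), and chronic and acute morphine did not pass the test of their difference (-0.18, adjusted p = 0.345). Fkbp5 also rose after chronic morphine in 129P3/J (0.76, adjusted p = 1.65e-04), C57BL/6J (0.75, adjusted p = 9.7e-05) and DBA/2J (0.62, adjusted p = 0.00681).

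The 200 bases upstream of the Fkbp5 start are shown because no other gene was called higher at the level of genes. The sequence is that of RefSeq on GRCm38.p6, written 5′ to 3′ on the strand of the gene (minus), and capitals mark every match on either strand to a set of 6 motifs. The first is AGAACA, the core letters that the glucocorticoid receptor reads, and the second is TGACGTCA, the binding letters of CREB. The third is CACGTG, which clock factors among others read as an E-box, and the fourth is CCAAT, bound by nuclear factor Y. The fifth is ATATAA, a form of the element bound at the start of many genes by the general machinery, and the last is CACCC, known from globin promoters and bound there by erythroid factors.
Fkbp5, chr17:28486150-28486349: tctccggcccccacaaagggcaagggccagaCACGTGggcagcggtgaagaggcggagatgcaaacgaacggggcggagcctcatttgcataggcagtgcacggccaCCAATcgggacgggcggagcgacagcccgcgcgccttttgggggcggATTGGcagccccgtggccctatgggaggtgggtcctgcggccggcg
The window held CACGTG at 169 to 164 bases upstream, and CCAAT on either strand at 93 to 89 and 46 to 42 bases upstream. Over 32851 promoter windows, each searched in the 200 bases upstream of its start, CACGTG is present in 5.26% and CCAAT in 29.3%. The glucocorticoid receptor palindrome was absent from the Fkbp5 window and present in 3 of all windows (0.00913%), 1 of them that of Sgk1. AGAACA was found in 4 of 24 glucocorticoid-responsive genes with a window, beside 14.6% of 27025 genes with one.

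Of 29 genes listed as glucocorticoid-responsive, 28 were measured. Fkbp5 alone passed the test over all genes, and none fell. The median difference of the 28 was 0.28 in SWR/J, against -0.016 over all genes, and 11 of them were higher at an unadjusted p under 0.05, where all genes give 2.25%. None was lower by that criterion. In 13 of the 28 the chronic arrays lay above the saline arrays without overlap (all genes 4.84%), and in none below (all genes 7.94%). The summed intensity of the list was 24214 to 24999 on chronic arrays and 20325 to 21444 on saline arrays. This list overlaps with genes the study named from these arrays, so its direction is no independent evidence.

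Zbtb16, a zinc finger transcription factor, showed the widest difference of the list. It had 10.57, 10.48 and 10.57 on chronic arrays, against 9.54, 9.23 and 9.84 on saline arrays, a separation of the groups that was not called (1.01 ± 0.292 SE, adjusted p = 0.598). Plin4, a coat protein of lipid droplets, had 8.61, 8.64 and 8.67 on chronic arrays and 7.84, 7.78 and 8.04 on saline arrays (0.75, adjusted p = 0.601). Sult1a1, a sulfotransferase of phenolic compounds, had 8.84, 8.52 and 8.45 on chronic arrays and 7.55, 8.24 and 7.91 on saline arrays (0.70, adjusted p = 0.601). In each of these genes the groups did not overlap, and the saline arrays spread more than the chronic ones in all 3. Tsc22d3, the glucocorticoid-induced leucine zipper GILZ, had 10.21, 10.31 and 10.35 on chronic arrays and 10.01, 9.79 and 9.62 on saline arrays (0.48, adjusted p = 0.601). Cdkn1a, the cyclin-dependent kinase inhibitor p21, had 8.33, 8.14 and 8.13 on chronic arrays and 7.40, 8.02 and 7.56 on saline arrays (0.54, adjusted p = 0.651). Pdk4, a kinase that inactivates pyruvate dehydrogenase, differed by 0.45 and overlapped between groups. The metallothionein Mt2 differed by 0.25 without overlap. Differences were below 0 in 5 of the 28, among them the clock gene Per1 (-0.04), the phosphatase gene Dusp1 (-0.13) and, the lowest, the stress-inducible gene Sesn1 (-0.26).

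The same 28 genes had a median difference of 0.24 in the mean of the other 3 strains, where 8 rose (all genes 0.798%), and of 0.28 after acute morphine in SWR/J, where 3 rose (all genes 0.0704%). The chronic and acute comparisons within SWR/J share the saline arrays, and their values are set side by side only. Zbtb16 rose by 1.34 in the other strains (adjusted p = 3.93e-05), Plin4 by 0.90 (adjusted p = 2.18e-04) and Cdkn1a by 0.91 (adjusted p = 2.18e-05). With the replicate number as a random block 7 of the 8 rises in the other strains passed. No gene of the list differed between SWR/J and the other strains in the test of that difference. Zbtb16, given here by the brightest of its 3 tested probe sets, was 0.53 higher than saline after acute morphine (limma adjusted p = 0.664). Its acute arrays (10.07, 10.09 and 10.03) lay below all 3 chronic arrays. Chronic and acute morphine did not pass the test of their difference for Zbtb16 (0.48, limma adjusted p = 0.437).

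**Figure D2:**
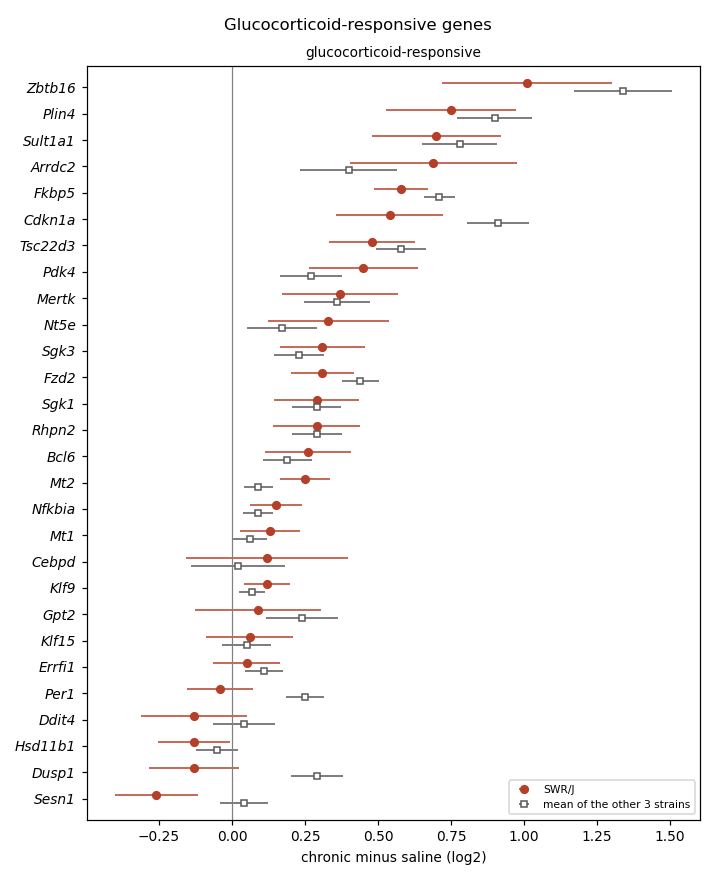
Chronic minus saline log2 differences of the 28 measured glucocorticoid-responsive genes, with filled circles for SWR/J, open squares for the mean of the other 3 strains and bars of 1 SE. SWR/J values run between -0.26 (Sesn1) and 1.01 (Zbtb16), with 23 of 28 above 0.

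The other probe sets that rose were named after their values were seen. One is shared by 8 genes of the Ugt1a cluster, which encode enzymes that attach glucuronic acid to bilirubin, steroids and drugs, and its signal cannot be assigned to one of them. It had 7.95, 7.92 and 7.70 on chronic arrays and 7.13, 7.11 and 6.91 on saline arrays, with no overlap. Mean intensity was 233 ± 21.5 after chronic morphine and 133 ± 11.1 after saline (SD, n = 3 each), a 1.75-fold rise (0.81 ± 0.123 SE, adjusted p = 0.0112). Acute arrays lay between, at 7.66, 7.77 and 7.40 (0.56 against saline, adjusted p = 0.114), and the other 3 strains rose by 0.47 in the mean (adjusted p = 5.29e-04). A brighter probe set for the same cluster differed by 0.24 with overlap (adjusted p = 0.879). A further, dimmer one was under the filter and not tested. It had 5.65, 5.71 and 6.01 on chronic arrays and 4.88, 4.95 and 5.35 on saline arrays, without overlap. Greb1l, on chromosome 18, is related to the estrogen-induced gene Greb1. One of its probe sets had 7.28, 7.64 and 7.28 on chronic arrays and 6.84, 6.45 and 6.56 on saline arrays (0.78 ± 0.142 SE, adjusted p = 0.0287). It rose by 0.96 after acute morphine as well (adjusted p = 0.00223) and by 0.39 in the other strains (adjusted p = 0.0104), the last with an adjusted p of 0.0935 under the random block. The brighter Greb1l probe set differed by 0.19 (adjusted p = 0.892), so the rise was seen on 1 of 2 probe sets.

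Hemoglobin transcripts were lower after chronic morphine on all 5 adult probe sets that passed the intensity filter, of which 4 were called. The probe set shared by the beta globin genes Hbb-bt, Hbb-bs, Hbb-b2 and Hbb-b1 had 11.39, 11.39 and 11.19 on chronic arrays, against 12.18 on each of the 3 saline arrays. Mean intensity was 2570 ± 195 after chronic morphine and 4640 ± 4.67 after saline (SD, n = 3 each), a 1.81-fold fall (-0.86 ± 0.158 SE, adjusted p = 0.0287). The saline arrays agreed far more closely than the chronic ones, and the gap between the groups exceeded the spread of both. The alpha globin genes Hba-a1 and Hba-a2 share 3 probe sets. The brighter called one had 11.42, 11.38 and 11.20 on chronic arrays and 12.10, 12.08 and 12.11 on saline arrays (-0.76 ± 0.143 SE, adjusted p = 0.0334). The dimmer called one had 10.89, 11.05 and 10.81 on chronic arrays and 11.52, 11.62 and 11.64 on saline arrays (-0.68 ± 0.124 SE, adjusted p = 0.0287). On the third, 11.41, 11.46 and 11.22 on chronic arrays stood against 12.03, 11.95 and 11.99 on saline arrays, again without overlap but above the threshold (-0.63, adjusted p = 0.244).

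The Hbb-b2 probe set, on chromosome 7, was the dimmest of the adult globins. It had 6.16, 5.78 and 5.86 on chronic arrays and 7.33, 8.11 and 7.62 on saline arrays (-1.75 ± 0.321 SE, adjusted p = 0.0287), or 61.6 ± 8.76 and 211 ± 59.1 in intensity (SD, n = 3 each). All 3 chronic arrays lay under the intensity of 99.7 and it entered the test through its saline arrays alone, so the fitted size is uncertain. With the chronic arrays set at that limit the difference would be 2.07-fold. Adult globin probe sets under the filter were 1 each of Hba-a1, Hba-a2 and Hbb-b2, and they were not tested. That of Hba-a1 was not lower, with 6.18, 6.15 and 6.77 on chronic arrays and 6.25, 6.37 and 6.07 on saline arrays. That of Hba-a2 overlapped at 4.64, 4.90 and 4.49 on chronic arrays and 4.77, 5.02 and 5.88 on saline arrays. The further Hbb-b2 probe set had 4.95, 4.73 and 4.71 on chronic arrays and 6.75, 6.38 and 7.16 on saline arrays, without overlap. Hbb-y, which encodes an embryonic beta-like chain, differed by 0.24 in the other direction (adjusted p = 0.844). Alas2, the first enzyme of heme synthesis in red cells, had 6.56, 6.61 and 6.97 on chronic arrays and 7.29, 6.67 and 7.58 on saline arrays (-0.47, adjusted p = 0.83). Slc4a1, the anion exchanger of the red cell membrane, had 7.23, 6.82 and 6.75 on chronic arrays and 7.61, 6.92 and 7.85 on saline arrays (-0.52, adjusted p = 0.83). Both overlapped between the groups. Fewer blood cells in the tissue and less globin RNA per cell cannot be told apart in such pools, and how completely blood was removed was not tested.

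**Figure D3:**
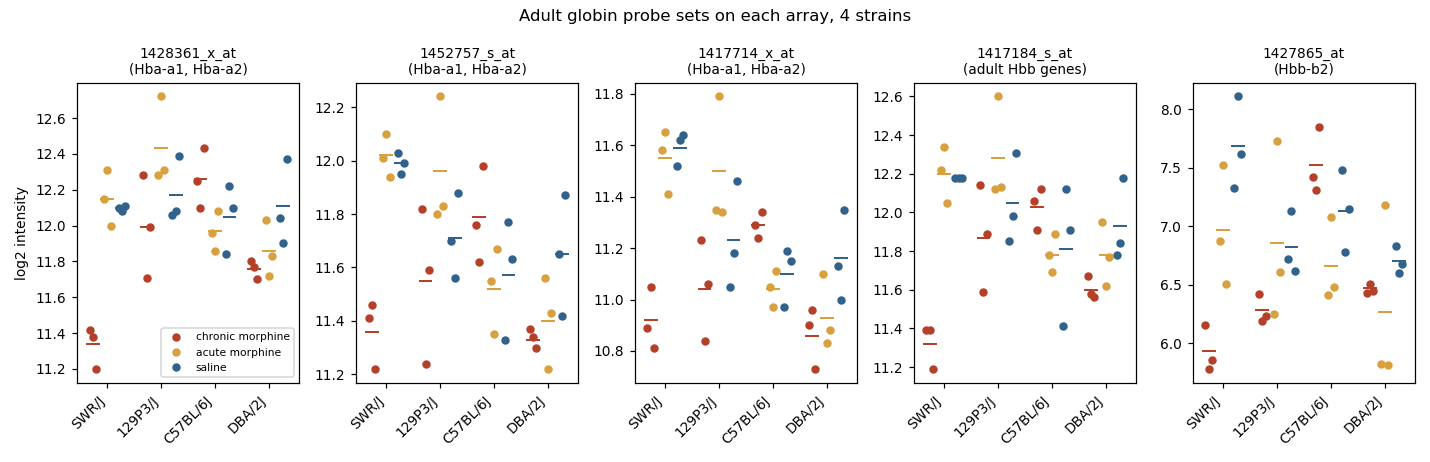
Log2 intensity of the 5 adult globin probe sets by strain, with chronic morphine left of acute morphine and saline, points for arrays (3 per group) and bars for group means. SWR/J chronic arrays lie below all SWR/J saline and acute arrays, while in C57BL/6J the chronic mean is above the saline mean.

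Acute morphine left the hemoglobin signal of SWR/J near that of saline for the shared probe sets. The beta globin probe set had 12.22, 12.34 and 12.05 on acute arrays, and chronic arrays were 0.88 below them (adjusted p = 0.0548). The alpha globin probe sets were 0.82 and 0.63 lower after chronic than after acute morphine (adjusted p = 0.0548 and 0.0817), and none of these differences passed the threshold. Other probe sets varied after acute morphine. Hbb-b2 was 0.72 below saline with overlap (limma adjusted p = 0.562). Slc4a1 had 6.27, 6.56 and 6.10 on acute arrays, below all saline arrays and under the filter limit (-1.15, limma adjusted p = 0.197). Alas2 differed from saline by 0.05. In the other 3 strains the mean chronic change of the 4 called globin probe sets lay between -0.10 and -0.13 (adjusted p at least 0.488). In DBA/2J all 5 adult globin probe sets were lower after chronic morphine without overlap, by 0.24 to 0.35, with no call. In C57BL/6J they were higher by 0.19 to 0.39 in the mean. In 129P3/J they differed by -0.16 to -0.54, and Hbb-b2 alone was lower without overlap. The SWR/J change in Hbb-b2, which passed the filter through its saline arrays alone, exceeded that of the other strains by -1.62 (limma unadjusted p = 1.55e-04). The excess was -0.76 for beta globin (2.73e-04) and -0.66 and -0.58 for alpha globin (4.54e-04 and 3.55e-04). None passed after adjustment over all probe sets (adjusted p = 1), so a fall particular to SWR/J was not shown.

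The bases upstream of 3 adult globin genes are given for comparison, from RefSeq on GRCm38.p6, with the same letters in capitals as for Fkbp5. They are shown because these genes fell together, each is written on its own strand (plus for Hba-a1, minus for both beta genes), and each run covers the 200 bases before the start.
Hba-a1, chr11:32283472-32283671: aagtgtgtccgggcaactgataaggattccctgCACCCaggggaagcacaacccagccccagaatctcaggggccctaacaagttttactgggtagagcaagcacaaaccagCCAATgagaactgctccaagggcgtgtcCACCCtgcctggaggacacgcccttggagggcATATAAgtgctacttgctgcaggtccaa
Hbb-bs, chr7:103827929-103828128: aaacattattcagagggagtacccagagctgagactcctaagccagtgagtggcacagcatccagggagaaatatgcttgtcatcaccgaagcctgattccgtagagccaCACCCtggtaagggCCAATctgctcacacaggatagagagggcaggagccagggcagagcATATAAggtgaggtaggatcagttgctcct
Hbb-bt, chr7:103813924-103814123: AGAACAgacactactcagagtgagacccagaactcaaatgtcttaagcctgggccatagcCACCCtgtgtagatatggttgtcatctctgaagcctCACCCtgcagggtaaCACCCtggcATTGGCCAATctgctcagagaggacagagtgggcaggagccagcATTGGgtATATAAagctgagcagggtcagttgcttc
All 3 held ATATAA between 30 and 23 bases upstream, and all 3 held CCAAT and CACCC. Of all windows 7.3% held ATATAA, 29.3% CCAAT and 45.5% CACCC, and these 3 motifs were chosen with the values known. When the 250 bases upstream were aligned, Hba-a2 matched Hba-a1 at 247 of 247 bases, and Hbb-bs and Hbb-bt were identical at 127 of 249.

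Dusp15, a dual-specificity phosphatase on chromosome 2 that is expressed in oligodendrocytes among other cells, fell on 1 of its 2 probe sets. The called one had 5.81, 6.27 and 5.77 on chronic arrays and 6.65, 6.78 and 6.75 on saline arrays (-0.78 ± 0.136 SE, adjusted p = 0.026). The brighter one had a difference of 0.11 in the other direction (adjusted p = 0.953). The probe set with no gene name had 6.36, 6.28 and 6.07 on chronic arrays and 6.97, 7.39 and 7.52 on saline arrays (-1.05 ± 0.182 SE, adjusted p = 0.026), with acute arrays between at 6.60, 6.51 and 6.80. Both were under an intensity of 99.7 on all chronic arrays, and with those set at the limit the differences would be 1.06-fold for Dusp15 and 1.57-fold for the unnamed probe set. Both were named after their values were seen.

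Genes of oligodendrocytes, the cells that form myelin, were somewhat lower, with no member called. Of 22 listed genes of mature oligodendrocytes and myelin 18 were measured, and their median difference was -0.17. Lower values without overlap were found in 5 of 18 (all genes 7.94%) and higher ones in none (all genes 4.84%), and 6 were lower at an unadjusted p under 0.05 (all genes 4.06%). Ugt8a, which makes the myelin lipid galactosylceramide, had 8.98, 9.34 and 9.03 on chronic arrays and 10.10, 9.55 and 9.60 on saline arrays (-0.63 ± 0.144 SE, adjusted p = 0.229). Gjb1, which encodes connexin 32, had 6.60, 6.76 and 6.72 on chronic arrays and 7.42, 7.43 and 7.01 on saline arrays (-0.59, adjusted p = 0.467). Mag, an adhesion protein of the innermost myelin layer, differed by -0.33, and Aspa, which breaks down N-acetylaspartate, by -0.28. The most abundant structural transcripts were level, with differences of 0.01 for Mbp and 0.02 for Mobp and for Mal.

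Of 13 listed lineage regulators and precursor genes 11 were measured, with a median difference of -0.20 and no call. That median was -0.39 without saline array 1 and -0.08 without saline array 2. Olig2, a transcription factor that specifies the lineage, had 7.44, 7.47 and 7.16 on chronic arrays and 7.76, 8.07 and 7.89 on saline arrays (-0.55 ± 0.147 SE, adjusted p = 0.485). Gpr17, a receptor of cells in the course of differentiation, had 8.71, 8.85 and 8.48 on chronic arrays and 8.99, 9.22 and 9.21 on saline arrays (-0.46, adjusted p = 0.601). Nkx2-2 and Matn4 were lower without overlap by 0.44 and 0.40. The precursor markers Pdgfra and Cspg4 had differences of -0.01 and 0.11. In the other strains 7 of the 18 mature genes and 3 of the 11 lineage genes fell (all genes 2.11%), among them Ugt8a by 0.59 (adjusted p = 2.13e-04) and Olig2 by 0.74 (adjusted p = 2.18e-05). Under the random block 3 and 1 of them passed. Some of these genes had been named by the study from the same arrays.

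**Figure D4:**
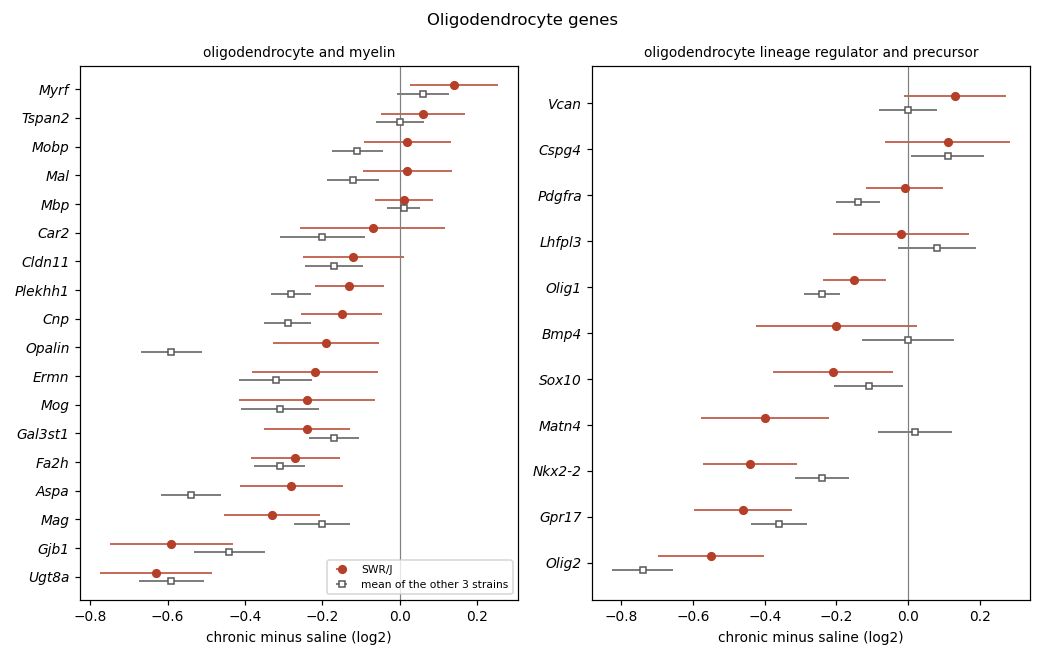
Chronic minus saline log2 differences of oligodendrocyte genes, mature cells and myelin on the left and lineage regulators and precursors on the right, with filled circles for SWR/J, open squares for the mean of the other 3 strains and bars of 1 SE. SWR/J differences are lowest for Ugt8a (-0.63) and Olig2 (-0.55), and Mbp lies at 0.01.

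Sterol synthesis genes differed little as a group, with a median of -0.10 over 24 of 27 listed genes and no call. The nearest to the threshold of all named genes was Fdps, the farnesyl diphosphate synthase of the mevalonate pathway. It had 8.47, 8.39 and 8.29 on chronic arrays and 9.01, 8.84 and 8.81 on saline arrays (-0.50 ± 0.0992 SE, adjusted p = 0.0551), without overlap. Acute arrays were at 8.89, 8.86 and 8.76. In the other strains Fdps differed by -0.10, and the SWR/J change was 0.40 lower than theirs (unadjusted p = 0.00152, adjusted p = 1). Further members below saline at an unadjusted p under 0.05 were Cyp51 (-0.43), Idi1 (-0.38) and Sqle (-0.32), enzymes of the same pathway. In all, 4 of 24 met that criterion (all genes 4.06%) and 6 were lower without overlap (all genes 7.94%), while Srebf1, a transcription factor of lipid synthesis, was 0.13 higher without overlap.

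Genes of endoplasmic reticulum stress, chaperones and transcription factors among them, showed a similar tilt. Of 16 measured genes 15 had a negative difference, with a median of -0.15 (all genes -0.016). Lower values without overlap were found in 6 (all genes 7.94%), and none was called. Manf, a secreted protein of the stress response, had 9.10, 9.14 and 9.00 on chronic arrays and 9.31, 9.74 and 9.42 on saline arrays (-0.41, adjusted p = 0.603). Hspa5, the chaperone BiP, had 10.75, 10.64 and 10.79 on chronic arrays and 10.90, 11.05 and 11.04 on saline arrays (-0.27, adjusted p = 0.77). The median over 19 cytosolic and mitochondrial heat shock genes was -0.14, with 4 lower without overlap (all genes 7.94%) and none called. Cryab, a small heat shock protein, differed by -0.58 with overlap. The inducible Hsp70 genes Hspa1a and Hspa1b differed by -0.14 and -0.03 in SWR/J, and rose by 0.43 each in the mean of the other strains (adjusted p = 0.0218 and 0.0172, but 0.162 and 0.14 under the random block), a contrast whose own test did not pass.

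Genes of the opioid system itself were not called. Of 8 listed peptides and receptors 7 were measured, with a median difference of 0.00. Oprm1, the mu opioid receptor, had 8.27, 8.23 and 8.22 on chronic arrays and 8.07, 8.17 and 8.04 on saline arrays, a small separation of 0.15 with a 95% interval of -0.17 to 0.46. The difference of Penk was -0.05 (95% interval -0.21 to 0.11) and that of Pdyn, the dynorphin precursor, was 0.00 (-0.21 to 0.21). Oprk1, the kappa receptor, differed by -0.19 (-0.51 to 0.12) and Pnoc, the nociceptin precursor, by -0.33 (-0.73 to 0.06). Among 20 measured effectors of opioid receptors none was called. Rgs10, which speeds the shut-off of inhibitory G proteins, had 9.67, 9.55 and 9.58 on chronic arrays and 10.02, 9.89 and 9.74 on saline arrays (-0.28, adjusted p = 0.651), and Rgs2 differed by -0.24.

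Camk1g, a calcium/calmodulin-dependent kinase, stood out from its family. It had 9.52, 9.46 and 9.35 on chronic arrays and 8.91, 9.22 and 8.85 on saline arrays (0.45 ± 0.105 SE, adjusted p = 0.244), without overlap. It rose by 0.58 after acute morphine in SWR/J (adjusted p = 0.018) and by 0.51 after chronic morphine in the other strains (adjusted p = 2.18e-05). The other 10 kinases measured had differences between -0.28 (Pnck) and 0.10 (Camk2g). Genes of cyclic AMP signaling had a median of -0.04 over 22 genes with no call, and subunits of GABA, glycine and glutamate receptors one of -0.09 over 28 genes with none. Glra2, a glycine receptor subunit, differed by -0.41 and Gabrg1, a GABA-A receptor subunit, by -0.35.

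Immediate early genes, which neurons switch on within minutes of activity, had a median difference of -0.09 over all 20 listed genes, with none called. Arc, a regulator of synaptic receptor traffic, had 9.62, 9.81 and 9.63 on chronic arrays and 9.73, 9.69 and 9.80 on saline arrays. In the mean of the other strains Arc rose by 0.68 (adjusted p = 0.00192), and the SWR/J change was 0.74 lower than theirs (unadjusted p = 0.00335, adjusted p = 1). Fos had 8.14, 8.30 and 8.01 on chronic arrays and 9.14, 7.80 and 8.17 on saline arrays. The first saline array was the brightest of the 6 for Fos, Junb, Egr2 and Npas4, and without it the median of the list was -0.03. Without chronic array 3 it was -0.02. Fosb differed by 0.10 and Nr4a2, an orphan nuclear receptor, by 0.41 with overlap.

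The remaining pathways differed little. Median differences were 0.02 over 18 circadian clock genes, 0.01 over 15 genes of glucose transport and pyruvate use, -0.04 over 33 respiratory chain subunits, -0.04 over 12 hypoxia-responsive genes, -0.08 over 21 genes of fatty acid oxidation and -0.08 over 9 histone genes, with no call in any of them. Cry1, a repressor of the clock, had 7.34, 7.61 and 7.16 on chronic arrays and 7.90, 7.88 and 7.76 on saline arrays (-0.47, adjusted p = 0.85). Hk2, a hexokinase that starts glycolysis, had 6.86, 6.95 and 7.12 on chronic arrays and 6.72, 6.49 and 6.43 on saline arrays (0.43, adjusted p = 0.601). Both were separated without overlap.

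Marker lists of cell types describe what each block of tissue held. Excitatory neurons of the cortex, which lies next to the dissected region, gave the highest median of any list, 0.48 over 8 of 11 listed genes, with overlap in every gene and none at an unadjusted p under 0.05. Their summed intensity was 2231, 3583 and 3106 on chronic arrays and 1574, 1978 and 3203 on saline arrays, so it varied more than 2-fold between arrays. Slc17a7, the vesicular glutamate transporter of cortical cells, had 8.91, 9.96 and 9.65 on chronic arrays and 8.13, 9.10 and 9.54 on saline arrays. The median was 0.23 without saline array 1, 0.24 without chronic array 2 and 0.77 without chronic array 1. In the other strains it was 0.62. Medium spiny neuron markers had a median of -0.11 over 23 genes (-0.03 without saline array 1), with 20 below 0 and none called. Lower values without overlap were found in 3 (all genes 7.94%) and higher ones in 0 (all genes 4.84%). In the other strains the median of these markers was -0.16, and 6 fell (all genes 2.11%), but 0 under the random block. Drd2, the dopamine receptor of indirect pathway neurons, had 10.07, 10.03 and 10.02 on chronic arrays and 10.29, 10.50 and 10.23 on saline arrays (-0.30, 95% interval -0.51 to -0.09, adjusted p = 0.652). Drd1, that of direct pathway neurons, differed by -0.07 (-0.39 to 0.25). Neither was called, the intervals overlap, and a difference between the 2 genes was not tested. Isl1 and Foxp2, transcription factors of these neurons, each differed by -0.36. Septal genes were lower by a median of 0.18 over 4 genes. Astrocyte genes had a median of 0.02 over 19, endothelial genes -0.07 over 11, pericyte genes 0.02 over 7 and microglial genes -0.10 over 14. Ttr, the defining transcript of the choroid plexus, differed by 0.07. The part that tissue makeup has in the differences of the other lists was not tested. Fewer cells of a type and less RNA per cell cannot be told apart here.

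**Figure D5:**
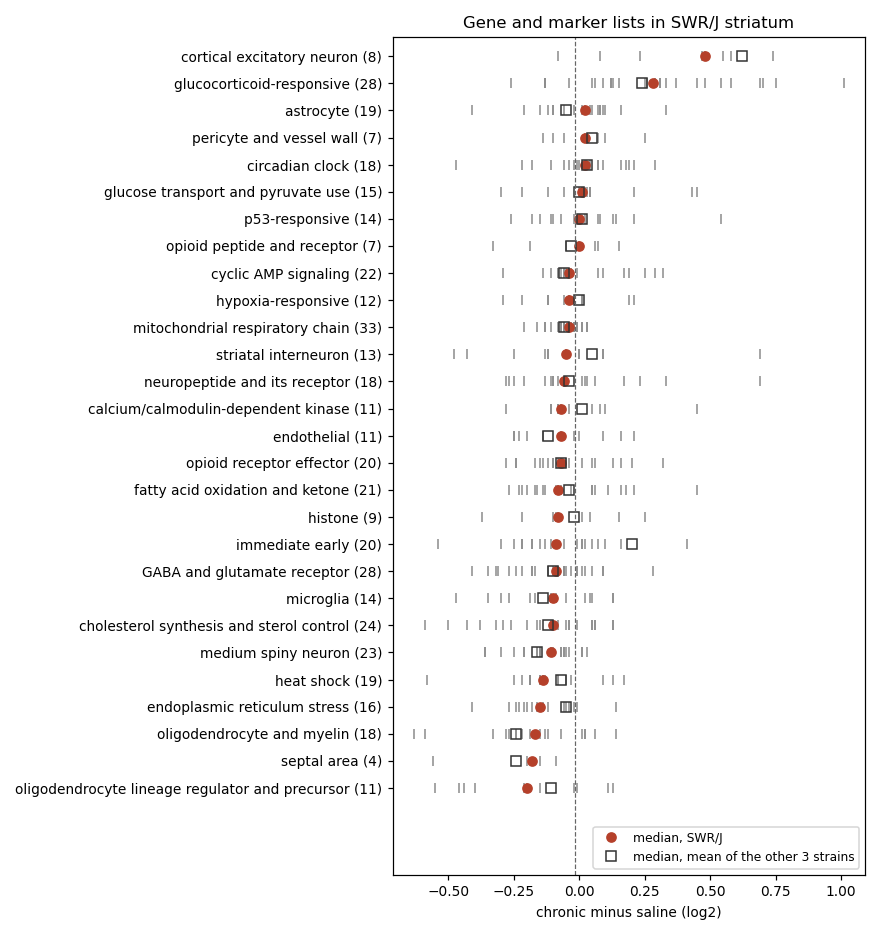
Chronic minus saline log2 differences by gene and marker list, with the number of measured genes in brackets, ticks for genes, filled circles for the SWR/J median and open squares for the median in the mean of the other 3 strains. The dashed line marks the SWR/J median of all genes, and the glucocorticoid-responsive and cortical lists lie farthest to its right.

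The size of the chronic response in SWR/J was compared with that of the other strains in one test of the difference. No probe set passed (0 of 25907, or 0%), and 599 had an unadjusted p under 0.05 (2.31%). In the separate strains, 464 probe sets were called after chronic morphine in C57BL/6J (1.79%), 1 in 129P3/J (0.00386%) and 2 in DBA/2J (0.00772%). The differences between these counts were not tested. Genes with the smallest p for the difference were, after Hbb-b2, Bop1 (-0.34), Gm13889 (-0.53), Sox8 (-1.17), Fdps (-0.40), H6pd (0.59), Uroc1 (0.73), Wdr90 (-0.37), Arc (-0.74) and 4930526F13Rik (0.60), all with an adjusted p of 1.

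Chronic and acute morphine were compared directly within SWR/J. No probe set passed in the limma fit (0%), whereas 2699 (10.4%) were lower and 1193 (4.6%) higher after chronic morphine at an unadjusted p under 0.05. With weights for the quality of each array 2050 probe sets passed, and 7 with a trended and robust variance. Rfx4, a transcription factor of brain development and one of the genes named for a small p in this contrast, had 7.49, 7.67 and 7.39 on chronic arrays and 8.44, 8.40 and 8.05 on acute arrays (-0.78, adjusted p = 0.0624). Ctla2a, a protease inhibitor, had 7.72, 7.97 and 7.84 on chronic arrays and 8.38, 8.72 and 8.62 on acute arrays (-0.73, adjusted p = 0.0817). Slc5a3, an inositol transporter, and Dnajb1, a partner of Hsp70, were 0.49 and 0.57 lower after chronic morphine, with chronic arrays below all acute arrays in both. Against saline, the acute dose raised 13 probe sets (0.0502%) and lowered 0 (0%).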

How the data were processed

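Striatal RNA from pools of 3 mice was hybridized to Affymetrix Mouse Genome 430 2.0 arrays. The deposited table gives, as made by the authors, a linear intensity for 45101 probe sets per array, already normalized between arrays and with a floor at 6.69; which of the authors' summary methods produced it is not given in the sources used here. Log2 was taken without a pseudocount. After 64 control probe sets were set aside, those with log2 above 6.64 on at least 3 of the 6 SWR/J chronic and saline arrays were kept. The means of 12 groups over 36 arrays were estimated in limma 3.58.1 (R 4.3.3), with variances moderated by empirical Bayes (statmod 1.5.0 for random blocks), and p-values were adjusted by Benjamini-Hochberg over 25907 probe sets for each contrast. The fits were tested on simulated data. Probe set symbols came from the platform annotation, updated to RefSeq, with 21759 probe sets carrying 1 symbol, 561 several and 3587 none. A gene was represented by its brightest probe set with 1 symbol. Named genes were those called without overlap, the genes of largest change in each of 32 lists, those of smallest p between SWR/J and the other strains or between chronic and acute morphine, and genes the study names. Greb1l, Dusp15, the unnamed probe set and probe sets shared by genes were named after their values were seen. Members and lists were chosen with earlier results of these data known. Nothing says that pools of a group came from separate cohorts, so p-values measure the spread between pools.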

Additional observations from a re-analysis of the deposited data

Results flagged for a closer look

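In 8 of 480 probe sets looked at across the called, named and listed genes, every chronic array moved away from saline in one direction in SWR/J and in the opposite direction in another strain, without overlap. The differences between these strain pairs were not tested, and several of the genes were named for a difference between strains. The share of all probe sets with such opposite moves was not counted, so these are values only. In SWR/J alone, 4.87% of all probe sets lay above saline without overlap and 7.13% below. The dimmer called alpha globin probe set changed by -0.68 in SWR/J and by 0.19 in C57BL/6J. P4ha1, a collagen prolyl hydroxylase, changed by -0.29 in SWR/J and by 0.23 in C57BL/6J. Bop1, a factor of ribosome assembly, changed by -0.17 in SWR/J, by 0.24 in 129P3/J and by 0.13 in DBA/2J. Sox8, a transcription factor of glia, changed by -0.97 in SWR/J and by 0.74 in 129P3/J. H6pd, a dehydrogenase of the endoplasmic reticulum, changed by 0.44 in SWR/J and by -0.59 in DBA/2J. Wdr90 changed by -0.21 in SWR/J and by 0.25 in 129P3/J, the squalene synthase gene Fdft1 by -0.11 and 0.23, and the complex I subunit gene Ndufs1 by -0.13 and 0.07 in the same strains.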

How the results depend on the processing

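All 9 called probe sets kept their direction under every alternative that tested them. Chronic and saline arrays of the 9 do not overlap. Refitting the same values or leaving out an array therefore could not reverse the direction, and keeping it there says nothing on robustness. The 3 higher and 6 lower calls became 0 and 0 when the 6 arrays or the 9 SWR/J arrays were fitted alone, and 0 and 0 at an adjusted p under 0.01. Lower calls numbered 1 without the intensity filter and 0 without moderation. Leaving out 1 array at a time gave 0 to 3 higher and 0 to 4 lower calls. For chronic against acute morphine the count of 0 became 3 with a pseudocount of 16, 7 with a trended and robust variance, 2050 with array weights and 13 at an adjusted p under 0.1, and 0 to 3 with 1 array left out. Among the 6 chronic and saline arrays, array weights gave saline array 1 a weight of 0.4922 and the other 5 arrays 0.88 to 1.197. The chronic against acute contrast holds no saline array, and the weights of the acute arrays are not given here. The test against the other strains gave 0 throughout. Genes called within the lists (1) became 2 after quantile normalization, after median centring and at an adjusted p under 0.1 and 0 with the 6 or the 9 arrays alone, at an adjusted p under 0.01 and for the mean over all probe sets of a gene, with 0 to 1 when 1 array was left out. Of Fkbp5 and Hbb-b2, 1 was called without the filter and 1 without moderation, 0 with the 6 or the 9 arrays alone, and 0 to 2 with 1 array left out. The cause of these shifts was not tested.

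Replicate numbers did not pair the arrays: same-numbered chronic and saline arrays deviated from their group means with correlations of -0.1668, 0.3026 and -0.172. Between different numbers, chronic 1 with saline 3 and chronic 3 with saline 1 had 0.2995 and 0.2977, and the rest were negative. A pairing under other numbers was not tested. Across strains, same-numbered arrays of one treatment correlated with SWR/J at medians of 0.05656 to 0.5538, lowest for saline 2 and highest for acute 1, and the consensus correlation within a block of treatment and number was 0.2442. With the number as a fixed replicate block in the 6 arrays, higher and lower calls were 0 and 0, calls in the lists 0 and calls of Fkbp5 and Hbb-b2 0, while 1399 probe sets had an unadjusted p under 0.05. A random block over the 36 arrays left 8 of the 9 called, and in the mean of the other 3 strains 62 probe sets in place of 595, an alternative chosen after the data were seen. With pools of 3 mice and 3 arrays a group, precision is limited by the number of arrays, and 3 of the 6 falls entered through saline arrays alone.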
